A study of Mus musculus with 10 samples.

Results

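Troponin is the calcium switch of striated muscle, and 8 mouse genes encode its 3 kinds of subunit: Tnni1, Tnni2 and Tnni3 for troponin I, Tnnt1, Tnnt2 and Tnnt3 for troponin T, and Tnnc1 and Tnnc2 for troponin C. They were chosen by name, with earlier results of these data known, from the 23337 genes of the count table, and all 8 had a row. Of these, 6 had enough reads to be tested among 11870 genes, and Tnnt3 and Tnnc2 did not.

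Troponin sits on the actin filament together with tropomyosin. Troponin C binds calcium, troponin I inhibits the interaction of actin with myosin until calcium arrives, and troponin T ties the complex to tropomyosin. In each class a cardiac gene is distinguished from slow and fast skeletal genes: Tnni3 and Tnnt2 are the cardiac forms, Tnnc1 serves both heart and slow skeletal muscle, Tnni1 and Tnnt1 are the slow skeletal forms, and Tnni2, Tnnt3 and Tnnc2 are the fast skeletal forms. Tnni1 is also the troponin I of the fetal heart and is replaced there by Tnni3 around and after birth.

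Polyadenylated RNA was sequenced from sorted cardiomyocytes of mice with floxed Actn2, the gene of the Z-disc protein alpha-actinin-2. The knockout group had genotype Actn2-FF and the heterozygote group Actn2-F+, with 5 samples in each, numbered 1 to 5 as in the labels. Every animal, controls included, received the virus AAV9-cTNT-Cre on postnatal day 1 and was sampled on postnatal day 14. The Cre recombinase was thus driven by a cardiac troponin T promoter in both groups, the heterozygotes lose 1 of their 2 Actn2 copies wherever Cre acts, and the gate used for sorting is not given in the sources used here. The labels do not say how the samples relate to litters or sorting days, so p-values measure only the spread between these samples.

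Values are CPM, counts relative to the library total, with that total scaled by trimmed mean of M-values (TMM) factors. Total counts ran from 8086656 to 25237696 per sample. Actn2 itself, as a check of the labels, lay between 1145 and 1286 CPM in the knockouts and between 2677 and 3474 CPM in the heterozygotes, a log2 fold change of −1.39 (SE 0.0910). Summed over 8 ventricular and general cardiomyocyte markers, the level was 82810 to 105593 CPM in knockouts and 81146 to 106800 CPM in heterozygotes. Of these 8, Mybpc3 alone was called, or 12.5% against 18.9% of all tested genes. It was higher in knockouts, at 11242 ± 974 against 8331 ± 1281 CPM (SD, log2 fold change 0.43, edgeR adjusted p = 0.0117). Over 11 skeletal muscle markers the sum was 1.98 to 4.20 CPM in knockouts and 1.77 to 4.05 CPM in heterozygotes, with Myod1 and Pax7 at 0 counts in all 10 samples. Among them, Myh8 had 0.208 to 1.23 CPM in knockouts and 0 to 0.128 CPM in heterozygotes. At 0 to 14 counts per sample it was too scarce to be tested. In the other skeletal markers the values of the groups overlapped. The 8 endothelial markers summed to 283 to 469 CPM in knockouts and 427 to 647 CPM in heterozygotes, with a median log2 fold change of −0.42. All 8 were lower at an unadjusted p below 0.05 in edgeR, a threshold for which the share of all genes is not given here. After adjustment, edgeR called Egfl7 alone, again 12.5% of the list. DESeq2 called 4 of the 8 lower, and 2625 of all 11870 tested genes in either direction. Heterozygote 3 stood apart in 10 interferon response genes, a list chosen after the data were seen, with a summed 702.8 CPM against 28.9 to 49.1 CPM in the other 9 samples. Knockout 5 stood apart in some of 6 atrial markers: Myl7 was 176.7 CPM there and 0.197 to 44.4 CPM elsewhere, and Bmp10 had 230 counts there and at most 2 elsewhere. Not all of these markers did so. Nr2f2 lay between 1.95 and 2.83 CPM in knockouts and between 3.20 and 5.77 CPM in heterozygotes (log2 fold change −0.85, edgeR adjusted p = 0.0158). Nr2f1 had at most 8 counts in any sample, and the groups overlapped.

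Of the 6 tested troponin genes, 3 passed an adjusted p of 0.05 in edgeR's quasi-likelihood test with Benjamini-Hochberg adjustment over all tested genes: Tnni1 and Tnnt1 were higher in the knockouts and Tnni3 was lower. Over all 11870 tested genes, 18.9% passed in either direction, 10.2% higher and 8.64% lower. The median log2 fold change was 0.13 over the 6 genes and 0.0023 over all tested genes. In these 3 genes the 2 groups did not overlap, which was so in 14.7% of all tested genes. The same 3 genes passed without heterozygote 3, without knockout 5, and with the mean level of the endothelial markers as a covariate. That covariate gave log2 fold changes of 3.03 for Tnni1, −0.59 for Tnni3 and 0.49 for Tnnt1.

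The 8 genes form 3 pairs in which a troponin I gene lies near a troponin T gene, while the 2 troponin C genes stand alone. Tnni1 and Tnnt2 lie 25.4 kb apart on chromosome 1, and Tnni3 and Tnnt1 lie 2.33 kb apart on chromosome 7. Both pairs hold a gene that differed between the groups, so the 250 bases upstream of the RefSeq transcript start, the first of 2 starts for Tnni1 and Tnnt2, are shown for these 4 genes, from RefSeq on build GRCm38.p6, 5′ to 3′ on the strand of the gene. Capitals mark matches, on either strand, to the motifs searched. Searched were TATAAA as the core promoter box of that name, CANNTG as the E-box of basic helix-loop-helix factors, and CATTCC as the MCAT element of TEAD factors. Also searched were CTATTTTTA as the core of MEF2 sites, GATAAG as the site of zinc finger factors such as Gata4, AGGTCA as the nuclear receptor half-site, and the CArG box of serum response factor. The windows are chr1:135799171-135799420 (plus strand) for Tnni1, chr1:135836084-135836333 (plus) for Tnnt2, chr7:4522529-4522778 (minus) for Tnni3 and chr7:4515976-4516225 (minus) for Tnnt1.
Tnni1: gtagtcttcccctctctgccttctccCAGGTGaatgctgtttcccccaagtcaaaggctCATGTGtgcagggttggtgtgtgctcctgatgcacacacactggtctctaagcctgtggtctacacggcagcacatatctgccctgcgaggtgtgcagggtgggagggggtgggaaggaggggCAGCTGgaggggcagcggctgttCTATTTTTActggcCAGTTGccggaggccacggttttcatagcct
Tnnt2: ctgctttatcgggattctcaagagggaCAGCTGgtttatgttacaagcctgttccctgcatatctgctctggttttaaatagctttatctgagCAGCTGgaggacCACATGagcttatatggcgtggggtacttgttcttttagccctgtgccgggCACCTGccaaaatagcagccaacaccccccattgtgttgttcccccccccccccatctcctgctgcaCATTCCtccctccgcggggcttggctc
Tnni3: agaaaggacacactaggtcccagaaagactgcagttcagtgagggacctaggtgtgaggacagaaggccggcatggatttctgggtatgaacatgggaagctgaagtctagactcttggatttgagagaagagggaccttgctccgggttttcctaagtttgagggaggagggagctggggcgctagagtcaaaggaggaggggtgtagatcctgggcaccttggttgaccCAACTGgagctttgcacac
Tnnt1: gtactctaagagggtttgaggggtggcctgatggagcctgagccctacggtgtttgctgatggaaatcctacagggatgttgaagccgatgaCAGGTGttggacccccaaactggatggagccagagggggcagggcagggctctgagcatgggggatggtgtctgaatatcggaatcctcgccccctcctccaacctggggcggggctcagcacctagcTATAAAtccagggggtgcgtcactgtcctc

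The Tnni1 window held the MEF2 core CTATTTTTA 45 to 37 bases upstream of the start, a string found in 0.454% of 32851 RefSeq promoter windows of that length. It also held 4 E-boxes, a motif present in 66.2% of windows. The Tnnt2 window held the MCAT element 27 to 22 bases upstream, present in 12.6% of windows, and 4 E-boxes. The Tnnt1 window held TATAAA 30 to 25 bases upstream, present in 12.4% of windows, and 1 E-box. The Tnni3 window held 1 E-box, 19 to 14 bases upstream, and no other match. The site of zinc finger factors, the nuclear receptor half-site and the CArG box, present in 6.55%, 14.0% and 1.47% of windows, had no match in these 4, and no matches overlapped one another. Upstream of the second start, the Tnni1 window held the MEF2 core at 135 to 127 bases and 2 E-boxes, and the Tnnt2 window held 1 E-box and no MCAT element. These are matches of letters and carry no measurement of binding. The table of RefSeq promoters matched 6 of the 8 genes, all but Tnni2 and Tnnt3.

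Tnni1 (chr1:135799421-135810989, plus strand, build mm10), the slow skeletal and fetal cardiac troponin I, had the largest fold change of the 6 tested genes, while Tnni3 differed more in CPM. Knockouts 1 to 5 had 926, 832, 1134, 1162 and 1455 CPM. Heterozygotes 1 to 5 had 103, 161, 108, 196 and 136 CPM. The lowest knockout, number 2, lay far above the highest heterozygote, number 4. The knockout mean was 1102 ± 241 CPM against 141 ± 38.7 CPM (SD, n = 5 each). This 7.83-fold rise, 2.97 ± 0.196 (SE) as a log2 fold change, had an adjusted p of 3.49e-07 in edgeR and ranked 32 of 11870 tested genes from the highest. Only 0.708% of tested genes, 84 in number, passed the test with at least a 4-fold rise. Knockout 5, the sample with high Myl7 and Bmp10, had the highest Tnni1, and the log2 fold change without it was 2.85. The part of the atrial signal in that one value was not tested. Without heterozygote 3 the log2 fold change was 2.88.

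Tnni3 (chr7:4518308-4522443, minus strand), the adult cardiac troponin I, moved the other way. Knockouts 1 to 5 had 5013, 4195, 4739, 4907 and 4734 CPM, and heterozygotes 1 to 5 had 6322, 8396, 6681, 6015 and 6638 CPM. Every heterozygote was above every knockout, with heterozygote 2 the highest. Means were 4717 ± 315 against 6811 ± 926 CPM (SD, n = 5 each). Tnni3 fell by 0.53 on the log2 scale, with an SE of 0.0967 and an adjusted p of 0.00165 in edgeR. Tnni3 nonetheless remained far above Tnni1 in every knockout when both were taken per kb of exon.

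Tnni2 (chr7:142442468-142444405, plus strand), the fast skeletal troponin I, was scarce, with 14 to 66 counts per sample. It lay between 1.37 and 5.93 CPM in the knockouts and between 1.89 and 4.30 CPM in the heterozygotes, and the groups overlapped. Its log2 fold change of 0.06 had an SE of 0.374 and an adjusted p of 0.933 in edgeR, with an interval of 2 SE from −0.69 to 0.81, and without knockout 1 it was −0.38.

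Shares within a class were taken from counts per kb of exon, so that genes of different length could be compared. Tnni1 made up 12.003%, 12.8%, 15.03%, 14.9% and 18.5% of troponin I in knockouts 1 to 5. In heterozygotes 1 to 5 the Tnni1 share was 1.19%, 1.40%, 1.18%, 2.35% and 1.49%. The groups lay far apart, with means of 14.6% ± 2.53 against 1.52% ± 0.482 (SD, n = 5 each) and a difference of 13.1 percentage points. The exact two-sided permutation test gave p = 0.00794, the smallest value 252 arrangements allow, and 0.0119 after Benjamini-Hochberg adjustment over 6 such values. Tnni3 made up the rest, with 85.3% in knockouts and 98.4% in heterozygotes, since the mean Tnni2 share was 0.0623% in knockouts and 0.0468% in heterozygotes. Counting error was small beside these gaps. Of all raw troponin I reads, Tnni1 held 23.5% in knockout 5 (Wilson 95% interval 23.2% to 23.7%), without scaling by length.

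**Figure D1:**
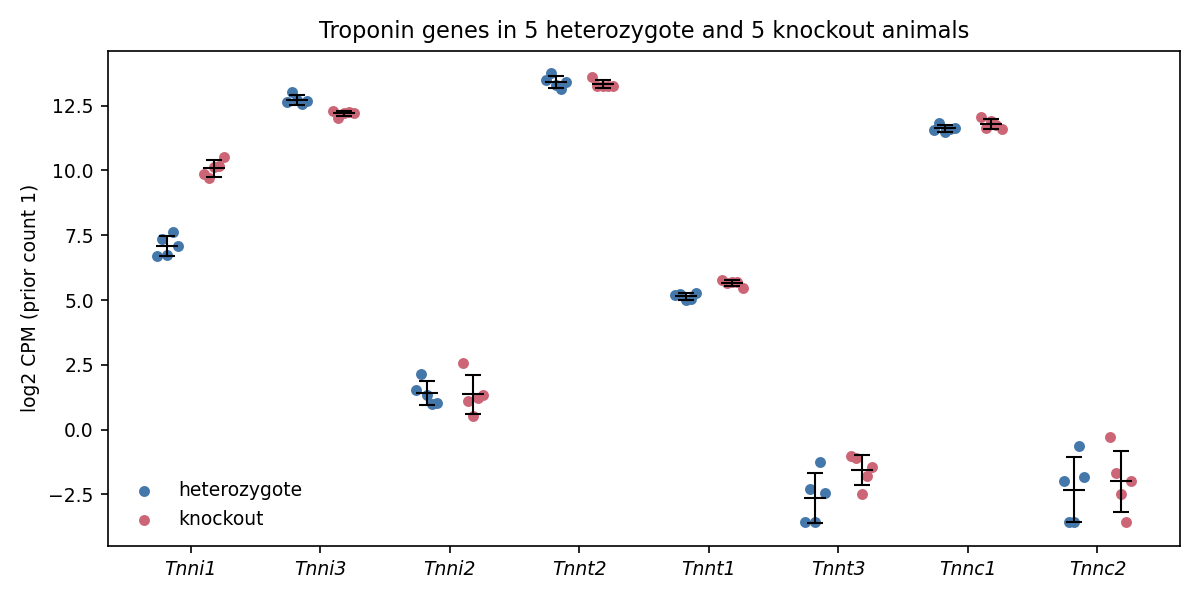
Level of each troponin gene, as log2 CPM with a prior count of 1, in 5 heterozygotes (blue) and 5 knockouts (red). Points are samples and black bars are the mean ± SD. Tnni1, Tnni3 and Tnnt1 show separate groups, Tnni2, Tnnt2 and Tnnc1 overlap, and Tnnt3 and Tnnc2 rest on 0 to 7 counts a sample.

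Among the troponin T genes, cardiac Tnnt2 (chr1:135836386-135852261, plus strand) dominated in all samples. It stood at 12489, 9810, 9795, 9691 and 9771 CPM in knockouts 1 to 5 and at 11428, 13763, 10164, 9051 and 10954 CPM in heterozygotes 1 to 5. Knockout 1 lay apart from 4 nearly equal knockouts, and the groups overlapped. Its log2 fold change of −0.10 had an SE of 0.113 and an adjusted p of 0.580 in edgeR, with an interval of 2 SE from −0.33 to 0.12. Counts per gene cannot show the splice forms of Tnnt2.

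Tnnt1 (chr7:4504663-4515975, minus strand), the slow skeletal troponin T, was far scarcer than Tnnt2 and differed between the groups. Knockouts 1 to 5 had 54.4, 50.1, 51.7, 51.3 and 43.6 CPM, and heterozygotes 1 to 5 had 36.3, 37.3, 31.8, 32.4 and 38.2 CPM. The lowest knockout, number 5, was still above the highest heterozygote, also number 5. Means were 50.2 ± 3.999 against 35.2 ± 2.92 CPM (SD, n = 5 each). Tnnt1 was thus 1.42-fold higher, or 0.51 on the log2 scale with an SE of 0.0936, at an adjusted p of 0.00172 in edgeR. Per kb, Tnnt1 made up 0.622% ± 0.0576 of troponin T in knockouts (0.553% to 0.672%) and 0.409% ± 0.0434 in heterozygotes (0.345% to 0.455%). The difference of 0.213 percentage points had an exact two-sided permutation p of 0.00794, adjusted to 0.0119. The share of Tnnt2 was correspondingly 99.4% and 99.6%.

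Fast skeletal Tnnt3 (chr7:142498836-142516009, plus strand) had 4, 5, 1, 2 and 5 counts in knockouts 1 to 5 and 0, 1, 0, 3 and 1 in heterozygotes 1 to 5. Nearly all of these values lie at or near the 3-count floor of 0.119 to 0.371 CPM, so no fold change is given. Such counts cannot show a difference at this depth.

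**Figure D2:**
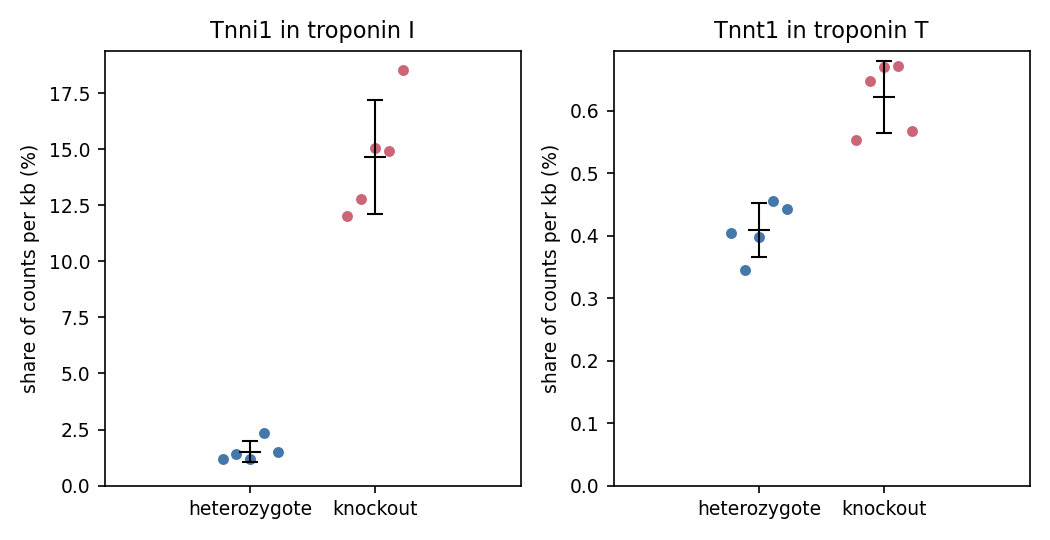
Share of counts per kb of exon held by Tnni1 within troponin I (left) and by Tnnt1 within troponin T (right), in percent, for each heterozygote and knockout. Points are samples and bars are the mean ± SD. The lowest knockout share of Tnni1 was 12.003% against a highest heterozygote share of 2.35%, and the Tnnt1 shares also did not overlap, on an axis that ends below 1%.

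Troponin C is encoded for heart and slow muscle by Tnnc1 (chr14:31208312-31211711, plus strand). Knockouts 1 to 5 had 4306, 3212, 3881, 3471 and 3124 CPM, and heterozygotes 1 to 5 had 3025, 3604, 2836, 3117 and 3198 CPM. Most knockouts were within the heterozygote range and knockouts 1 and 3 were above it. Means were 3599 ± 493 against 3156 ± 284 CPM (SD, n = 5 each). Its log2 fold change of 0.19 had an SE of 0.102 and an adjusted p of 0.220 in edgeR, with an interval of 2 SE from −0.01 to 0.39.

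Fast skeletal Tnnc2 (chr2:164777162-164779734, minus strand) had 7, 3, 1, 0 and 3 counts in knockouts and 4, 0, 0, 5 and 2 in heterozygotes, numbered 1 to 5. Its share of troponin C averaged 0.00650% in knockouts and 0.00600% in heterozygotes (exact two-sided permutation p = 0.881). In the GENCODE annotation of mm10, an exon of Ube2c on the opposite strand covers 592 of the 692 exon bases of Tnnc2. The counting did not use strand, so reads of these genes cannot be told apart there. In the annotation used for counting, Ube2c lay 4.26 kb from Tnnc2, so reads of that exon would be counted as Tnnc2. Their part in the Tnnc2 counts was not tested. No other troponin gene overlapped an exon of a neighbour in the GENCODE annotation. Within each class, the longest stretch shared by transcripts of 2 troponin genes was 14 to 22 bases, so reads of one gene have little sequence in common with another.

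Ordered by level per kb, the heterozygotes had Tnnt2 at 9281 ± 1469, Tnni3 at 8265 ± 1124 and Tnnc1 at 4490 ± 405 CPM per kb, with Tnnt2 and Tnni3 within their spread. Far below these came Tnni1 at 126 ± 34.8, Tnnt1 at 37.7 ± 3.13 and Tnni2 at 4.01 ± 1.47 CPM per kb. In the knockouts the order was the same, but the spacing was not. Tnnt2 was at 8643 ± 1021, Tnni3 at 5725 ± 382 and Tnnc1 at 5119 ± 701 CPM per kb, so that here Tnni3 and Tnnc1 were within their spread, and Tnni1 at 989 ± 217 CPM per kb stood between Tnnc1 and Tnnt1. Tnnt3 and Tnnc2 were below 1 CPM per kb on average in both groups, at the floor.

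The summed troponin I level was 6923, 5841, 6770, 7002 and 7054 CPM per kb in knockouts 1 to 5 and 7769, 10341, 8208, 7478 and 8181 CPM per kb in heterozygotes 1 to 5. All knockouts were below all heterozygotes, and the ratio of means was 0.800. Tnni1 added 862.5 CPM per kb on average while Tnni3 lost 2540 CPM per kb, so the gain amounted to 34.0% of the loss. The troponin T total, 8697 ± 1024 in knockouts and 9318 ± 1472 CPM per kb in heterozygotes, overlapped between groups. The troponin C total also overlapped, at 5120 ± 701 in knockouts and 4490 ± 405 CPM per kb in heterozygotes. Per unit of troponin C message, troponin I was 1.33 ± 0.178 in knockouts and 1.87 ± 0.151 in heterozygotes (SD, n = 5 each), with no overlap. The ratios of troponin I to troponin T (0.779 in knockouts, 0.906 in heterozygotes) and of troponin T to troponin C (1.71 and 2.07) overlapped between the groups. The 8 genes together held 2.03% ± 0.135 of counts in knockouts and 2.06% ± 0.230 in heterozygotes. These sums are given as a description and were not tested, and fewer cells of a type and less RNA per cell cannot be told apart in such samples.

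**Figure D3:**
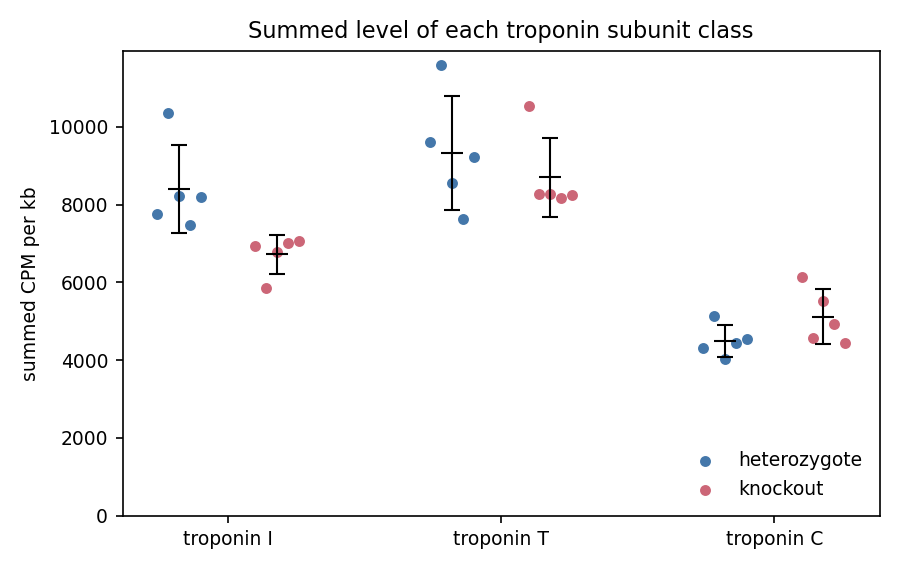
Summed CPM per kb of exon of the troponin I, T and C genes in each heterozygote (blue) and knockout (red), with the mean ± SD in black. Troponin I totals of the knockouts end at 7054 and those of the heterozygotes start at 7478, while the troponin T and C totals overlap.

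In 2 of the 3 pairs, the log2 ratio of the neighbours differed between the groups. Tnni1 rose while Tnnt2, 25.4 kb away with Lad1 between them, was not called, and the log2 ratio of Tnni1 to Tnnt2 counts went from −6.32 in heterozygotes to −3.25 in knockouts. This difference of 3.08 had an exact two-sided permutation p of 0.00794, adjusted to 0.0119. Tnni3 fell while Tnnt1, 2.33 kb away, rose, and the log2 ratio of Tnni3 to Tnnt1 counts went from 7.59 to 6.55, a difference of −1.03 with the same exact permutation p. The log2 ratio of Tnni2 to Tnnt3, 54.4 kb apart with Lsp1 between them, differed by −1.13 (exact permutation p = 0.135, adjusted 0.162). It rests on the few counts of Tnnt3, and without heterozygote 4 it was −1.59 (exact permutation p = 0.0159).

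Genes on either side of the pairs went in several directions. Next to Tnni1, Phlda3 rose (log2 fold change 0.73, edgeR adjusted p = 0.00563) and Lad1, between Tnni1 and Tnnt2, fell (−0.77, adjusted p = 0.0480), a call that was lost in 8 of 10 fits without 1 sample. Next to Tnni3, 6030429G01Rik fell (−1.15, adjusted p = 0.0117), and Ppp1r12c on the far side of Tnnt1 had −0.31 (adjusted p = 0.0889). Lsp1, between Tnni2 and Tnnt3, fell (−0.54, adjusted p = 0.0126), and Mrpl23 beyond Tnnt3 had −0.16 (adjusted p = 0.428). Beside Tnnc1, Nisch rose (0.39, adjusted p = 0.0113) and Sema3g had −0.86 (adjusted p = 0.0502), and was called in 6 other settings, DESeq2 among them (adjusted p = 0.0232). Beside Tnnc2, Ube2c had −0.12 and Snx21 had 0.05, both uncalled. Tnni1 was thus the only gene of these loci, among those tested, with a log2 fold change above 1. With the endothelial markers as a covariate in edgeR, Phlda3 (0.69, adjusted p = 0.0778) and 6030429G01Rik (−1.24, adjusted p = 0.0683) lost their calls. So did Lsp1 (−0.60, adjusted p = 0.0709) and Nisch (0.38, adjusted p = 0.124), all at similar log2 fold changes.

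**Figure D4:**
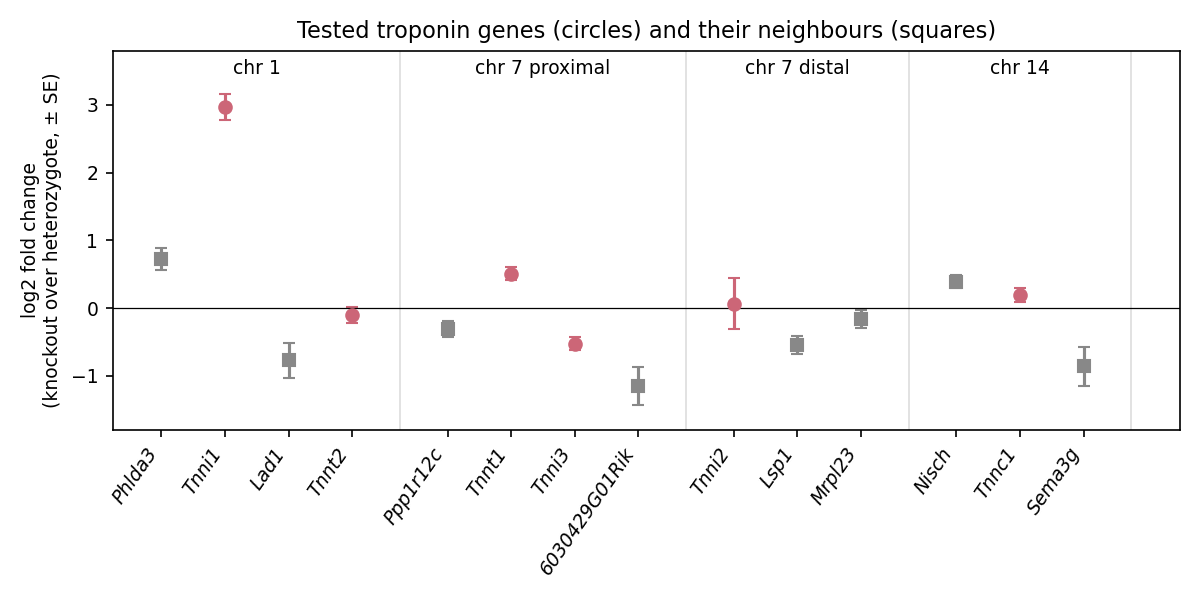
Log2 fold change of knockouts over heterozygotes, with its SE, for tested troponin genes (red circles) and the tested genes beside them (grey squares), grouped by locus along the horizontal axis in genome order. The Tnnc2 locus is left out because Tnnc2 was not tested. Tnni1 at 2.97 stands above its neighbours, and Tnnt1 and Tnni3, side by side, lie on opposite sides of 0.

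The genes whose levels over the 10 samples were most like those of each called troponin gene were found by Euclidean distance between log2 profiles, each centred on its mean, among 8364 genes with at least 10 CPM in the mean. For Tnni1 they were Shisa4 (distance 1.26), Tgfb2 (1.30), which encodes a transforming growth factor, and 1500009L16Rik (1.38), against a median distance of 4.83. For Tnni3 they were Cars2 (0.184), Mrpl4 (0.201) and Mrpl28 (0.237), which encode a transfer RNA synthetase and ribosomal proteins of mitochondria, against a median of 1.15. For Tnnt1 they were 1700025G04Rik (0.218), Asph (0.253) and Arf2 (0.277), against a median of 1.08. This distance depends largely on the difference between the groups, so it picks genes of similar log2 fold change. These ran from 2.56 to 3.18 beside Tnni1, from −0.51 to −0.49 beside Tnni3 and from 0.42 to 0.52 beside Tnnt1.

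Among 16 tested partners of troponin on the thin filament, 4 rose and 3 fell (43.8% called against 18.9% of all tested genes), with a median log2 fold change of −0.14. This list and those that follow were chosen with earlier results of these data known. Their shares of called genes are therefore a description and cannot show that a list differs from all genes. Acta2, smooth muscle actin that the immature heart also makes, fell by 1.82 on the log2 scale (SE 0.159). Of 6 smooth muscle and pericyte markers, Tagln fell by 1.07 (adjusted p of 0.0339), Cspg4 rose by 1.84 and the other 4 were not called. Of those 4, Myh11 (−0.65), Rgs5 (−0.35) and Pdgfrb (−0.33) were lower and Cnn1 (1.05) was higher. The 6 markers summed to 185 to 270 CPM in knockouts and 154 to 246 CPM in heterozygotes. Cspg4 alone averaged 132 CPM in knockouts and 37.0 CPM in heterozygotes, so this sum does not show the level of the others. The part of these markers in the fall of Acta2 was not tested. Tmod4, a cap of the pointed filament end, fell by 1.15. Tpm1, the main tropomyosin of the mouse heart, had 12092 ± 575 CPM in knockouts and 17209 ± 1037 CPM in heterozygotes, and fell by 0.51 on the log2 scale (adjusted p of 2.96e-04 in edgeR). Cap2, an actin binding protein, rose by 0.38. Acta1, skeletal actin, had 160 to 1200 CPM in knockouts and 34.2 to 332 CPM in heterozygotes, so that its log2 fold change of 1.78 (adjusted p of 0.0429 in edgeR) came with overlapping groups, and the call was lost in 7 of 10 fits without 1 sample. The calls of Tpm2 (0.80, adjusted p = 0.0472) and Lmod2 (0.42, adjusted p = 0.0484) were each lost in 8 of 10 such fits.

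Of 22 contractile genes of slow or fast skeletal muscle, some of which the heart also makes, 11 were tested, and 4 rose and 1 fell (45.5% called against 18.9% of all tested genes, median 0.42). Myh7, the slow myosin heavy chain of the fetal mouse ventricle, rose from 445 ± 316 to 6394 ± 2908 CPM, 3.85 higher on the log2 scale (SE 0.593, adjusted p of 4.80e-04 in edgeR). Casq1, the skeletal calsequestrin, rose by 4.30 and Mybpc2, the fast myosin binding protein C, by 2.97. Smpx rose by 0.54, and Cacna1s, the skeletal calcium channel, fell by 1.30 at 7 to 47 counts per sample. The ventricular and slow skeletal light chain genes Myl2 and Myl3, abundant in both groups, were not called. Of the fast skeletal troponin genes, Tnni2 was tested and not called, and Tnnt3 and Tnnc2 were at the floor.

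**Figure D5:**
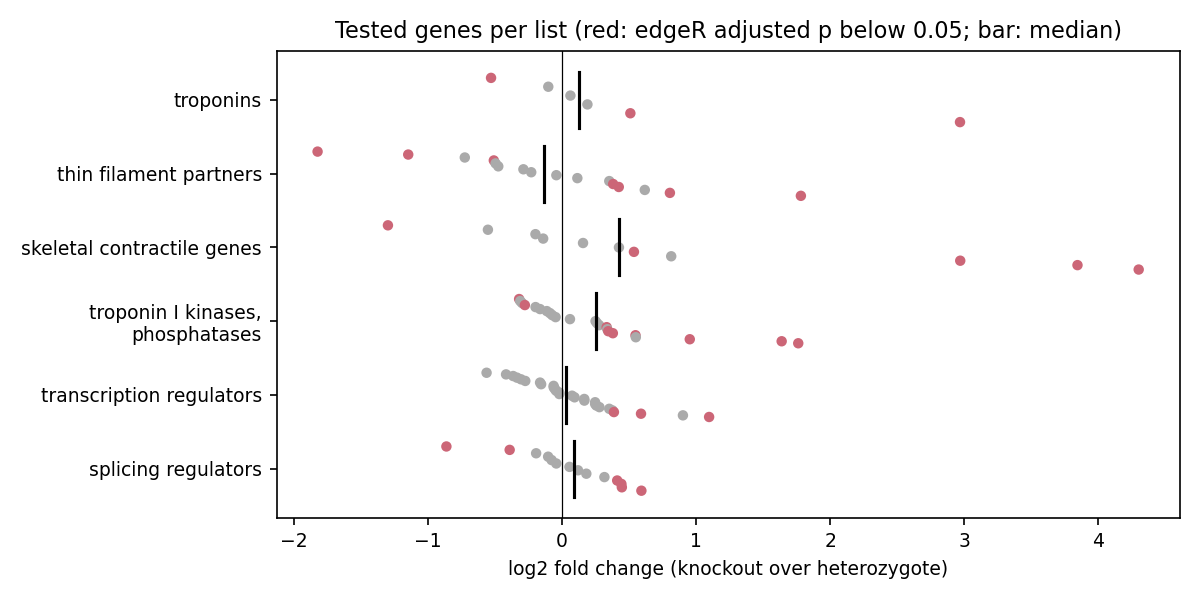
Log2 fold change of knockouts over heterozygotes for each tested gene of 6 lists, with genes of an edgeR adjusted p below 0.05 in red and a black bar at the median of each list. The troponin median is 0.13, with Tnni1 at 2.97 on the right, and the list of skeletal contractile genes has the highest median at 0.42.

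Enzymes that phosphorylate troponin I or act upstream of that step, and phosphatases that reverse it, gave 7 higher and 2 lower of 23 tested (39.1% called against 18.9% of all tested genes, median 0.25). Prkg1, a cyclic GMP dependent kinase, rose by 1.76 and Pak3, a p21 activated kinase, by 1.64, the latter at 10 to 182 counts per sample. The protein kinase C genes Prkcd and Prkca rose by 0.95 and 0.55. The phosphatase genes Ppp1ca (−0.32, adjusted p = 0.0304) and Ppp2r5a (−0.28, adjusted p = 0.0279) were called lower, and the call was lost in 4 and 7 of 10 fits without 1 sample. Tnni3k, a kinase named for its interaction with Tnni3, had −0.07 (adjusted p = 0.608). These are levels of messages and say nothing of phosphorylation.

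Of 28 tested regulators of troponin gene transcription, 3 were higher and 0 lower in edgeR's test, or 10.7% called, below the 18.9% of all tested genes. Both DESeq2 and limma voom, the latter with sample weights, called 5 higher and 1 lower of the 28. Over all 11870 genes they called 2625 and 2534, which is a similar share. At an unadjusted p below 0.05 in edgeR, 8 were higher and 4 lower. For that threshold the share of all genes is not given here. Six4, a homeodomain factor, rose by 1.10 at 27 to 168 counts per sample and Nfatc2, a calcineurin target, rose by 0.59. Esrrg, a nuclear receptor, had 0.39 (adjusted p = 0.0457), a call lost in 8 of 10 fits without 1 sample. Splicing factors that act on troponin T gave 4 higher and 2 lower of 14, or 42.9% called, above the 18.9% of all tested genes (median 0.09). Celf2 rose by 0.45, Rbfox2 by 0.44 and Rbm20, a splicing factor of the sarcomere, by 0.41, while Rbfox1 fell by 0.86. Ptbp2 had 0.59 (adjusted p = 0.0310) and Ptbp1 −0.39 (adjusted p = 0.0376), and these calls were lost in 2 and 8 of 10 such fits, for Ptbp2 without heterozygote 3 or knockout 3.

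With the endothelial markers as a covariate, edgeR called 942 of 11870 genes, 488 higher and 454 lower, in place of 2241. The number of genes called higher was then 0 of 16 thin filament partners (4 at an unadjusted p below 0.05), 0 of 28 transcription regulators (5 unadjusted) and 0 of 14 splicing factors (3 unadjusted). In lists of this size, 0 higher calls lie near the share of 488 in 11870 genes. For the unadjusted counts the share of all genes is not given here. Enzymes acting on troponin I kept 4 higher calls of 23, and skeletal contractile genes 3 of 11. Thin filament partners kept 3 lower calls. Most named genes that lost a call had similar log2 fold changes with and without the covariate, as for Cap2 (0.35 with it), Celf2 (0.42), Rbfox2 (0.41) and Nfatc2 (0.56), but Rbm20 went to 0.26, Six4 to 0.76 and Ptbp1 to −0.19. The part of endothelial RNA in these calls was not tested.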

How the data were processed

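The deposited values are whole-number read counts per gene, not normalised, which the authors made with featureCounts 1.5.1 on build mm10, per the file headers. The submitters' processing notes list STAR 2.5.3a and Subread 1.5.2. The alignment files in the header bear another aligner's default name, so the aligner is uncertain. Counting at default settings used no strand and left out reads aligned to several places. Of 14 count columns, 4 match no sample here and were not used.

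Genes passing filterByExpr (minimum count 10) were tested with edgeR 4.0.16 (R 4.3.3, TMM factors, glmQLFTest, 5 against 5 samples, no block), with Benjamini-Hochberg adjustment over 11870 genes. The test was checked on simulated data. CPM use the same factors. Shares and ratios of single samples were compared by exact permutation (coded with numpy 2.4.6), ratios after adding 1 count. Alternatives used other scalings and filters, DESeq2 1.42.0, limma 3.58.1 (voom with sample weights), sva 3.50.0, an endothelial covariate, a replicate block, and leaving out each sample. The Wilson intervals (95%) and the floor of 3 counts leave out all but counting error, and PCR duplicates make them too narrow. The members and lists were chosen with earlier results of these data known. Text names all 8 genes, their nearest neighbours, the 3 most alike genes and, per list, up to 4 called rises and 3 falls. Tnni3k, Egfl7, Tagln, Cspg4, Myh11, Rgs5, Pdgfrb, Cnn1, Myh8, Mybpc3, Nr2f1, Nr2f2, Myl2 and Myl3 were named after their values were seen.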

Additional observations from a re-analysis of the deposited data

Results flagged for a closer look

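In 5 of 32 groups of 5 values examined, a single sample lay far from the others by Dixon's criterion, which chance alone meets in about 1 of 20 groups. Tnnt2 in knockout 1 had a log2 CPM of 13.61, against 13.26 in the next knockout. The troponin T total of knockout 1, which Tnnt2 dominates, was accordingly 10527 CPM per kb, against 8277 in the next. The Tnni1 share of troponin I in heterozygote 4 was 2.35%, against 1.49% in the next heterozygote and 12.003% in the lowest knockout. The troponin I total was 5841 CPM per kb in knockout 2, against 6770 in the next knockout. It was 10341 CPM per kb in heterozygote 2, against 8208 in the next heterozygote.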

How the results depend on the processing

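Tnni1, Tnni3 and Tnnt1 kept their direction and their call in all 10 fits without 1 sample and in the 10 other settings. Without 1 sample their log2 fold changes ran from 2.85 to 3.12, from −0.57 to −0.44 and from 0.47 to 0.56. Tnnt2 (−0.18 to −0.01 without 1 sample) and Tnnc1 (0.12 to 0.24) were called in none of the settings, where the lowest adjusted p of Tnnc1 was 0.0534. Tnni2 changed sign with the endothelial covariate (−0.0846), in limma voom (−0.0597) and without heterozygote 4, heterozygote 5 or knockout 1, over a range of −0.38 to 0.28. The Tnnc2 share ran from −0.00217 to 0.00353 percentage points without 1 sample, and changed sign without heterozygote 2, heterozygote 3 or knockout 1. The Tnni2 to Tnnt3 ratio ran from −1.59 to −0.62 and passed 0.05 only without heterozygote 4. Tnnt3 and Tnnc2 did not pass the filter, and no fold change is given for them in any setting, the one without a filter included, since their counts lie at the floor. The count of genes called, 2241, was 942 with the endothelial covariate, 2809 with 1 surrogate variable, 2625 with DESeq2, 2534 with limma voom and 1699 to 2258 without 1 sample. Library totals in place of TMM moved the share of higher calls from 54.3% to 68.9% and the median of all genes to 0.084. Ube2c reached 0.0939 with the endothelial covariate and 0.0543 without heterozygote 4, over a range from −0.262 without 1 sample. Snx21 reached −0.0370 with that covariate, −0.00532 without heterozygote 3 and −0.0275 without heterozygote 4. For these changes the cause was not tested. Of 47 other named genes, 20 kept direction and call in every setting.

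The numbers shared by knockouts and heterozygotes showed no clear pairing: deviations of equally numbered samples correlated by −0.0604 to 0.185, and 2 of 5 numbers matched best with themselves. A check over 5 pairs cannot show whether equal numbers share a litter or a sorting day. With the number as a replicate block, 2182 genes were called, and Tnni1, Tnni3 and Tnnt1 stayed called. Of the other named genes, Sema3g was called with the block (adjusted p = 0.0400), and the calls of Esrrg (0.0595), Tpm2 (0.0686) and Ppp2r5a (0.0726) were lost. Paired sign flips (replicate block) gave an exact p of 0.0625, the smallest that 5 pairs allow, for the Tnni1 share (13.1), the Tnnt1 share (0.213), the Tnni1 to Tnnt2 ratio (3.08) and the Tnni3 to Tnnt1 ratio (−1.03), so this design cannot reach 0.05.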
